A study of Mus musculus with 2 samples.

Results

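The BCL2 family decides at the mitochondrion whether a cell lives or dies, and 10 of its genes were followed here in thymus cells of control mice and of mice with floxed Ets1. They were taken by symbol from the 32285 features of the count matrices, as a named list and not for how they behaved. The 5 anti-apoptotic genes were Bcl2, Bcl2l1, Mcl1, Bcl2a1b and Bcl2a1d, and the 5 pro-apoptotic genes were Bax, Bak1, Bcl2l11, Pmaip1 and Bbc3. Single-cell RNA was read in 2 libraries of YFP+ thymus cells. The control library came from Tbx21Cre Rosa26-YFP+ mice and the cKO library from Tbx21Cre Ets1F/F Rosa26-YFP+ mice, and each pooled 2 mice. Both genotypes therefore carry the Rosa26 YFP reporter and a Cre under the control of Tbx21, which encodes T-bet, and only the cKO mice carry the floxed Ets1 alleles. Cells were sorted for YFP, so a cell enters whenever the reporter had been switched on in it or its ancestors. The study was aimed at invariant natural killer T cells of the T-bet-expressing kind (iNKT1), and its title asks about T-bet and about effector programs like those of CD8 T or NK cells. The labels state neither age nor sex of the mice.

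Proteins of this family fall into 3 classes by role. The guardians BCL2, BCL-XL (from Bcl2l1), MCL1 and A1 (from the Bcl2a1 copies) hold the pore formers BAX and BAK in check. The BH3-only proteins BIM (Bcl2l11), NOXA (Pmaip1) and PUMA (Bbc3) sense stress, loss of cytokine or strong antigen receptor signals and release that hold. In the thymus BIM is known for the deletion of self-reactive cells, BCL-XL for the survival of double-positive (DP) thymocytes, and BCL2 for the survival of mature T and NK cells on interleukin-7 and interleukin-15.

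Promoters of Bcl2 and the Bcl2a1 pair, whose levels ran in different orders over the classes, and of Mcl1, which was near level, are shown so that the binding core of ETS factors, the family of the deleted gene, can be seen in place. RefSeq windows on GRCm38.p6 were found for 9 of the 10 members, in 14 windows, since some genes have several starts. Capitals mark AGGAAG or CGGAAG on either strand (CTTCCT and CTTCCG when read from the other strand). The printed stretches are shorter than the 250 bases counted below, so they do not hold every match. Over those 250 bases Bcl2a1b had 3 AGGAAG matches and Bcl2a1d 2. The windows lie before the RefSeq start, outside annotated exons, at chr9:89199059-89199208 (+) for Bcl2a1b, chr9:88731915-88731997 (-) for Bcl2a1d, chr3:95658571-95658720 (+) for Mcl1 and chr1:106714291-106714440 (-) for Bcl2.
Bcl2a1b: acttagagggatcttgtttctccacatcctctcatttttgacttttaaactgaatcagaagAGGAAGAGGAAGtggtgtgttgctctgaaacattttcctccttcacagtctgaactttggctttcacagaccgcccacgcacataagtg
Bcl2a1d: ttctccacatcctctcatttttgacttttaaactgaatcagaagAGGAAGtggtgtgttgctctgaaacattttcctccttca
Mcl1: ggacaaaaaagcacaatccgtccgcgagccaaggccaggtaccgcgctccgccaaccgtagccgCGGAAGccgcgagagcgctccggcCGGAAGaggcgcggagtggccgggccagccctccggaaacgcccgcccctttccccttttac
Bcl2: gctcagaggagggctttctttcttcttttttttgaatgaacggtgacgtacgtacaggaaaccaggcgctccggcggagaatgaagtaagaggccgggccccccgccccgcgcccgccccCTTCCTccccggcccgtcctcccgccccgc
Over the 250 bases before the start, 8 of the 14 member windows held one of these 6-base motifs, and 39.2% of 32851 RefSeq windows did so (13.6% for CGGAAG and 29.5% for AGGAAG). A match says only that the letters are there. The promoters of Bcl2a1b and Bcl2a1d were 96.1% identical over 206 aligned positions. Their transcripts are also near copies. In the last 500 bases, 162 of 411 stretches of 90 bases of Bcl2a1b occur unchanged in Bcl2a1d. How reads that match both copies were counted, or whether they were left out, is not given, so the level of each copy is uncertain. On mm10 in GENCODE M21, Bcl2a1b lies on the plus strand at 89199209 to 89207827 of chromosome 9 and Bcl2a1d on the minus strand of the same chromosome at 88723285 to 88731914. Bcl2 lies on chromosome 1 at 106538178 to 106714274 and Mcl1 on chromosome 3 at 95658788 to 95663176. The 3' ends of Bcl2a1d and Bak1 overlap genes on the opposite strand (Gm10634 and Ggnbp1), and since the strand setting of the counting is not given, their levels may hold reads of those genes. The 3' end of Bcl2a1b overlaps Gm29094, a protein-coding gene on the same strand that is not among the features. Its reads may therefore be held in the level of Bcl2a1b.

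Since each genotype has a single library, no difference below has a replicate check and none was tested. Levels are given in CPM, the UMIs (counted RNA molecules) of a gene per 1000000 UMIs of a cell class, summed over its cells, with exact 95% Poisson intervals. Ratios are cKO over control, with 0.5 UMIs added to each sum and exact conditional binomial 95% intervals. All intervals cover counting error only, and they leave out differences between mice, sorts and libraries. The 3' tags count about 1 end per molecule, so levels are not divided by gene length, and comparisons between genes are on this scale. The size rule asks of a gene a ratio of 1.5 or more, up or down, an interval that leaves out 1, and 20 CPM in the library where it is higher.

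Cells with at least 500 detected genes and at most 10% mitochondrial UMIs were kept, 7395 in control and 5903 in cKO, with a median of 2666 and 5533 UMIs per cell. They share 14 barcode sequences. Classes were set by UMIs: T cells with Trav11, the V segment of the invariant receptor (177 control and 148 cKO cells), CD3+ T cells without Cd8b1 (6217 and 2974), CD8 T cells with Cd8b1 (869 and 569), NK cells with Ncr1 and no CD3 (105 and 53), B cells (50 and 222) and Rag1+ cells, labelled DP (58 and 57). Of the Trav11+ T cells, 164 control and 139 cKO cells also belong to the CD3+ Cd8b1-negative class, so these classes are not independent. Ets1 itself was at 524 CPM in control and 167 in cKO CD3+ Cd8b1-negative T cells, 3.13-fold lower, and 2.36-fold lower in CD8 T and 4.63-fold lower in NK cells. In B cells it was 1.54-fold lower, and in Rag1+ cells it was higher in the library labelled cKO, at 489 in control and 658 in cKO, so Rag1+ cells do not show the loss that the label names. Whether the 3' tags lie outside the deleted exons is not given, so this is a check of the labels only. Gut or stromal marker UMIs (8 gut genes such as Zg16 and 4 stromal genes such as Col3a1) were found in 0 to 3.95% of control cells by class and in 12.3% to 54.1% of cKO cells. A further set, chosen after seeing the data, was the 1638 cKO and 0 control cells with no CD3 UMI and at least 1% of their UMIs from the gut genes, at a median of 1328 UMIs. Their Bcl2 was at 16.3 and Bcl2a1b at 7.98 CPM, against Mcl1 at 197 and Bax at 89.6.

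Each guardian had its own order of classes. Bcl2 was highest in NK cells in both libraries, at 511 CPM in control (453 to 574) and 372 in cKO (317 to 435). In control CD8 T cells came next at 472, with an interval that overlaps that of NK cells, then CD3+ Cd8b1-negative T at 300.2, Trav11+ T at 279, Rag1+ cells at 187 and B cells at 74.6. In cKO the order after NK was Trav11+ T at 358, CD3+ Cd8b1-negative T at 303, CD8 T at 263, B at 179.6 and Rag1+ cells at 98.7. The place of CD8 T cells, B cells and Rag1+ cells in that order thus differed between the libraries.

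Bcl2a1b and Bcl2a1d, which encode A1, followed another order. Bcl2a1b was highest in Trav11+ T cells, at 326 CPM in control and 239.9 in cKO, and lowest in NK cells, at 16.5 in control and 16.5 in cKO (9 and 7 UMIs). NK cells had 16-fold less Bcl2a1b than CD3+ Cd8b1-negative T cells in control (interval 8.92 to 37.1) and 12.2-fold less in cKO. Bcl2a1d had the same extremes, 157 in control Trav11+ T cells and 22.0 in control NK cells, and 118 and 23.6 in cKO. CD8 T cells lay between, at 116 in control and 155 in cKO for Bcl2a1b. By point estimate NK cells held most Bcl2 and least Bcl2a1 in both libraries. In cKO, however, their Bcl2 interval overlapped that of Trav11+ T cells (325 to 392), and their Bcl2a1b interval (6.63 to 34.0) that of Rag1+ cells (22.7 to 76.6). There was no overlap of intervals between NK and Trav11+ T cells for either Bcl2a1 copy.

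Bcl2l1, the gene of BCL-XL, set Rag1+ cells apart. It was at 99.0 CPM in control Rag1+ cells (58.7 to 156, 18 UMIs) and 132 in cKO (92.2 to 182, 36 UMIs). That is 6.2 times the CD3+ Cd8b1-negative T level in control and 5.78 times in cKO. The other classes ranged from 14.9 (B) to 29.3 (NK) in control and from 7.76 (B) to 24.8 (Trav11+ T) in cKO, and in both libraries each of these 5 classes overlapped its neighbour in the order. Mcl1 was the most even guardian. Its level ran from 216 in control CD8 T cells to 341 in control Rag1+ cells, 1.58-fold apart, and from 240.3 in cKO NK cells to 420.0 in cKO B cells, 1.75-fold apart.

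Among the pore formers, Bax, which opens the mitochondrial membrane, ran from 88.0 (Rag1+) to 139 (Trav11+ T) CPM in control and from 109.7 (Rag1+) to 161 (CD8 T) in cKO. Bak1 was lower than Bax in every class, at 30.0 (CD3+ Cd8b1-negative T) to 64.1 (NK) in control and 23.9 (B) to 47.1 (NK) in cKO. Of the BH3-only genes, Bcl2l11 had the highest point estimate in 5 of the 6 control classes, with Bbc3 above it in NK cells (42.1 against 40.3), and in all 6 cKO classes. It lay at 50.3 in control and 60.8 in cKO CD3+ Cd8b1-negative T cells. Bbc3 was at 22.8 and 22.3 there. Pmaip1 was scarce, at 2.78 and 4.93, and among the 6 classes reached 20 CPM in cKO CD8 T cells alone, at 21.9. The gut-led cKO cells had 25.7 CPM of Pmaip1.

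The libraries differed little in the largest class. In CD3+ Cd8b1-negative T cells, Bcl2 was at 300.2 CPM in control and 303 in cKO, a ratio of 1.01 (0.978 to 1.04). With mitochondrial and ribosomal protein genes left out of the total its log2 ratio went from 0.02 to -0.15, and the median of all genes from 0.16 to -0.00. Mcl1 was at 267 and 254, a ratio of 0.949 (0.916 to 0.983), and Bax at 138 and 129.9. Bcl2a1b was 1.29-fold lower in cKO (1.25 to 1.34), at 279 against 216, and Bcl2a1d 1.07-fold lower (1.01 to 1.12). Bcl2l1 was higher, at 16.4 against 23.1, a ratio of 1.41 (1.24 to 1.60), and so was Bcl2l11, with a ratio of 1.21 (1.12 to 1.31). The gut-led cKO cells had Bcl2l1 at 18.6 CPM (14.3 to 23.8), which overlaps the intervals of both libraries here. The part of RNA from such cells in the Bcl2l1 ratio was not tested. Bak1 had a ratio of 1.21 (1.10 to 1.34) and Bbc3 of 0.976 (0.864 to 1.10), and Pmaip1, on 74 and 108 UMIs and below the floor, of 1.77 (1.31 to 2.42). None of the 9 members that reached 20 CPM met the size rule, in a comparison where 17.7% of 5962 genes did (12.7% higher and 5.07% lower in cKO). The median log2 ratio was -0.04 over the members and 0.16 over all genes.

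Trav11+ T cells, of which most belong to the class above, gave fewer UMIs. Bcl2 was 279 CPM in control and 358 in cKO, a ratio of 1.28 (1.11 to 1.48). Bcl2a1b was 1.36-fold lower (1.17 to 1.58) and Bcl2a1d 1.34-fold lower (1.07 to 1.67). Mcl1 had a ratio of 1.03 (0.876 to 1.21), Bcl2l11 of 1.24 (0.875 to 1.78) and Bbc3 of 0.776 (0.444 to 1.33). None of the 9 members that reached the floor met the size rule, where 23.7% of genes did. The Bcl2a1 difference was smaller in 2 of the alternatives. Without the 5% of barcodes with most UMIs in each library the log2 ratio of Bcl2a1b was -0.07 (from -0.44) and of Bcl2a1d -0.11 (from -0.42), and without cells holding gut or stromal UMIs -0.11 and -0.02. Summed over 5 genes of dividing cells, the level was 117 CPM in control and 767 in cKO, and its part in these ratios was not tested. With mitochondrial and ribosomal protein genes out of the total, Bcl2a1b (-0.63) and Bcl2a1d (-0.60) met the rule. As a check of the class, Zbtb16 was seen in 20.3% of control and 27.0% of cKO cells, and Tbx21 in 39.0% and 64.2%. Klrb1c, the gene of NK1.1, went from 192 CPM (235 UMIs) in control to 12.8 (16 UMIs) in cKO, and Il2rb from 513 to 596.

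**Figure D1:**
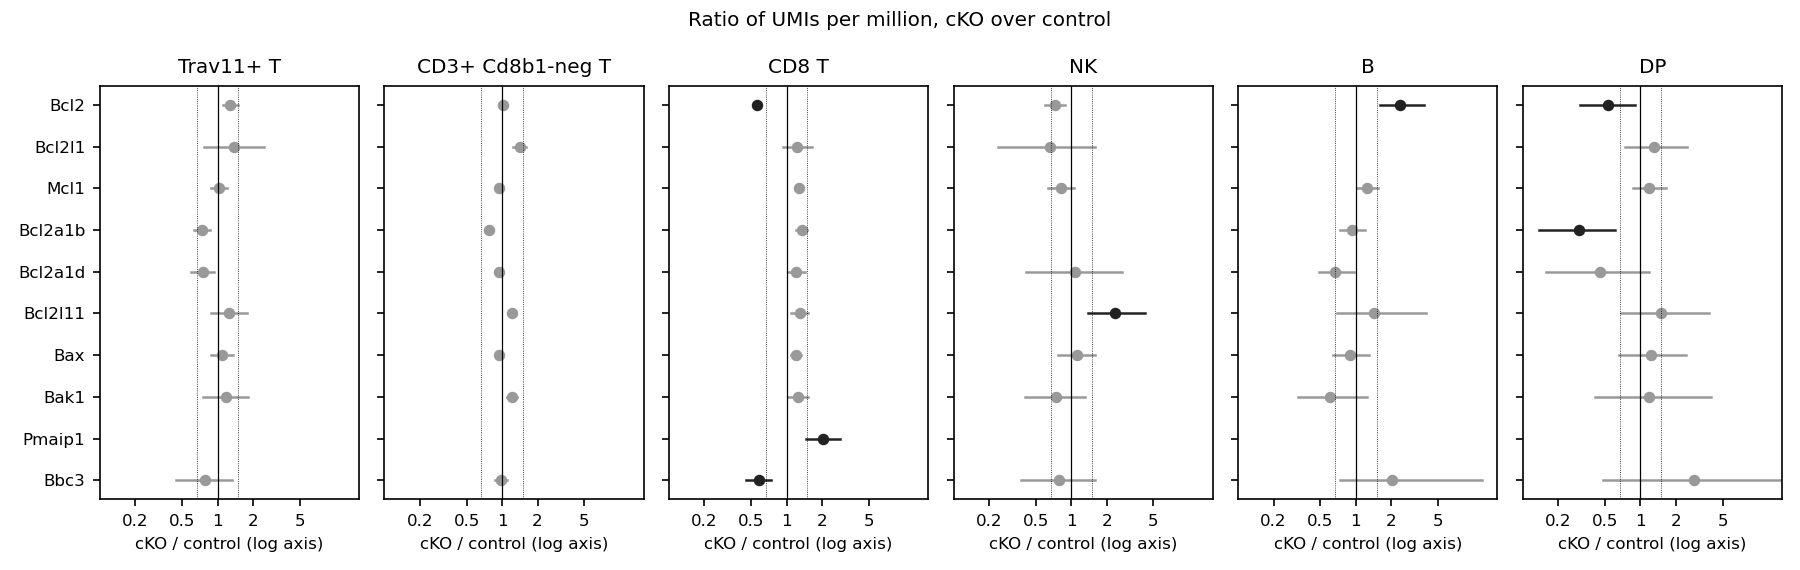
Ratio of CPM, cKO over control, of the members that reached 20 CPM in a class, on a log axis with 95% intervals, where black marks meet the size rule and dotted lines stand at a ratio of 1.5 either way. Black marks are Bcl2, Pmaip1 and Bbc3 in CD8 T, Bcl2l11 in NK, Bcl2 in B and Bcl2 and Bcl2a1b in Rag1+ (DP) cells, and the interval of Bbc3 in DP ends past the axis.

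In CD8 T cells Bcl2 was 1.80-fold lower in cKO (1.68 to 1.92), at 472 CPM in control and 263 in cKO. Bbc3 was 1.73-fold lower (1.36 to 2.22), at 33.7 against 19.4. Pmaip1 was higher, at 10.8 against 21.9, a ratio of 2.02 (1.47 to 2.84). The gut-led cKO cells had Pmaip1 at 25.7 CPM (20.6 to 31.7), and the part of RNA from such cells in this ratio was not tested. Bcl2, Bbc3 and Pmaip1 were the 3 of 10 members that met the size rule, where 29.6% of genes did, so the members' share was near that of all genes. Mcl1 (216 against 273) and Bcl2a1b (116 against 155) lay above control by less than the rule asks. With each cell given the same weight Bcl2a1b had a log2 ratio of -0.15, and with mitochondrial and ribosomal protein genes out of the total the log2 ratio of Mcl1 was 0.04. The other members had ratios of 1.23 (0.932 to 1.64) for Bcl2l1, 1.21 for Bcl2a1d, 1.21 for Bax, 1.25 for Bak1 and 1.29 for Bcl2l11.

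The composition of the CD8 T class also differed. Gzmk, a granzyme of effector and memory CD8 T cells, was found in 7.71% of control and 73.1% of cKO cells, and Cd8a was at 347 and 970.4 CPM. The cells were therefore split by a Gzmk UMI, a split chosen after seeing the data. With Gzmk (67 control and 416 cKO cells), Bcl2 was at 318 in control and 269 in cKO, a ratio of 0.844 (0.717 to 1.01). Without Gzmk (802 and 153 cells), it was at 489 and 242, a ratio of 0.496 (0.441 to 0.555). Bcl2 was thus lower in cKO by point estimate on both sides, and its interval reached 1 among cells with Gzmk.
Bcl2a1b differed in sign between the sides, with a ratio of 0.835 (0.662 to 1.08) with Gzmk and 2.05 (1.78 to 2.36) without. The ratio of Pmaip1 was 1.29 (0.708 to 2.89) with Gzmk and 0.677 (0.279 to 1.34) without, so neither side alone showed the pooled difference. Bbc3 had 1.44 (0.682 to 4.35) with Gzmk, on 6 control UMIs, and 0.613 (0.399 to 0.892) without. Leaving out the 5% of barcodes with most UMIs in each library brought the log2 ratio of Bcl2 in CD8 T cells from -0.85 to -0.29, and that of Bbc3 from -0.79 to -0.24, so that neither reached a ratio of 1.5, while Bcl2l1 came to 0.73. With each cell given the same weight they were -0.33 and -0.47, again short of that ratio. Erythroid markers, Hbb-bs, Hba-a1 and Hba-a2, summed to 558 CPM in control and 1.40 in cKO CD8 T cells, and the 5 dividing-cell genes to 231 and 513; their part in these ratios was not tested.

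**Figure D2:**
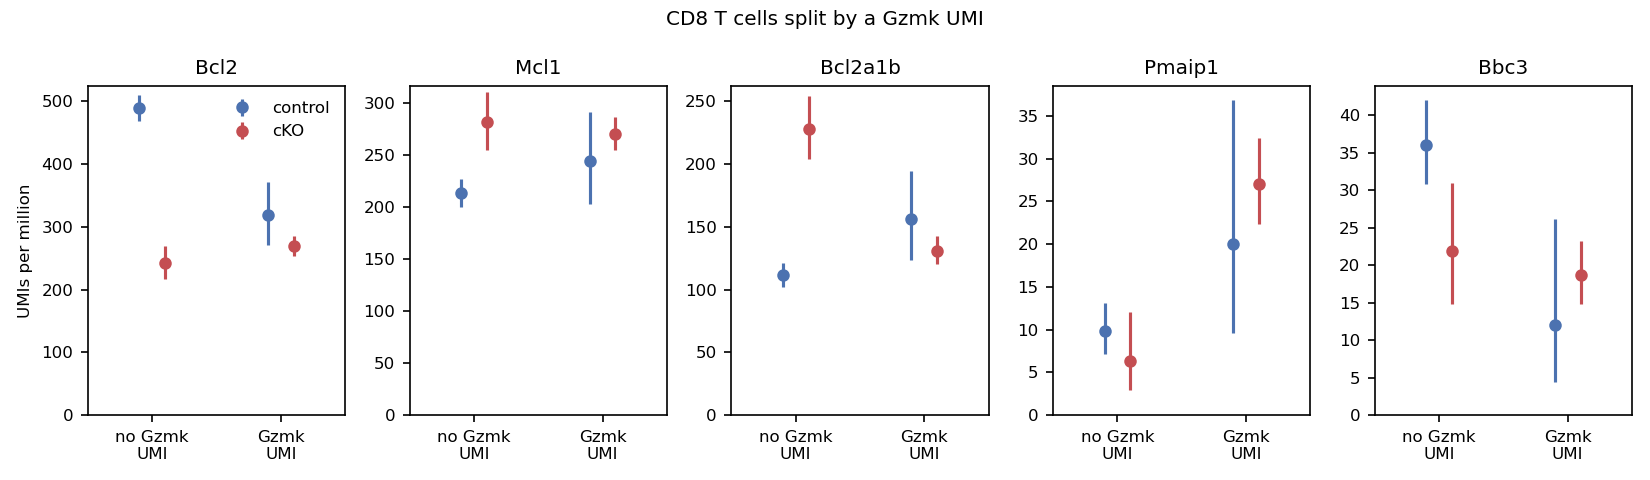
Levels of 5 members in CD8 T cells without and with a Gzmk UMI, as CPM on axes that start at 0, with exact 95% Poisson intervals, for the control and the cKO library. Bcl2 and Bcl2a1b are far apart between libraries only among cells without Gzmk, and the control level of Pmaip1 and Bbc3 with Gzmk rests on few UMIs.

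NK cells had Bcl2 at 511 CPM in control and 372 in cKO, 1.37-fold lower (1.12 to 1.68), below what the size rule asks. Bcl2l11 was higher in cKO, at 40.3 (22 UMIs) against 96.6 (41 UMIs), a ratio of 2.37 (1.40 to 4.23). It was the 1 of 8 members past the rule, where 16.9% of genes were. After thinning to 1500 UMIs per cell, Bcl2l11 was seen in 8 of 86 control NK cells, 9.30% (4.10 to 17.5). In cKO it was seen in 3 of 39, 7.69% (1.62 to 20.9). Unthinned, the shares were 17.1% and 30.2%. On so few cells the thinned share can neither show nor exclude the difference of the summed level. Mcl1 had a ratio of 0.822 (0.634 to 1.06) and Bax of 1.12 (0.774 to 1.61). Gut or stromal markers were seen in 3.81% of control and 49.1% of cKO NK cells, with the 8 gut genes summing to 7.32 and 1416 CPM. Without those cells the log2 ratio of Bcl2l11 was 1.03, against 1.25 with them. All 5 NK markers were detected in both libraries, at 7633 and 6499 CPM in sum.

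In B cells Bcl2 was higher in cKO, at 74.6 CPM (25 UMIs) in control against 179.6 (301 UMIs), a ratio of 2.36 (1.60 to 3.78). It was the 1 of 8 members past the rule, where 17.6% of genes were. With each cell given the same weight its log2 ratio was 0.21, against 1.24 from the sums. Mcl1 was at 337 and 420.0, and Bcl2a1b at 242 and 224. Cd79a was seen in 94% of control and 96.8% of cKO cells of this class. Ighm, the heavy chain of IgM, was at 728 CPM in control and 6532 in cKO, and its part in the Bcl2 ratio was not tested. The 5 myeloid or dendritic markers summed to 346 and 328 CPM, nearly all of it Cst3 (346 and 317). Gut or stromal markers were seen in 54.1% of the cKO B cells and in 0 of the 50 control ones. Without those cells the log2 ratio of Bcl2 was 1.42.

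Rag1+ cells had Bcl2 at 187 CPM (34 UMIs) in control and 98.7 (27 UMIs) in cKO, 1.89-fold lower (1.11 to 3.26). Bcl2a1b was 3.31-fold lower (1.66 to 7.33), on 27 and 12 UMIs. They were the 2 of 9 members past the rule, where 11.2% of genes were. Bcl2 no longer met it with at least 1000 genes per cell (log2 ratio -0.54, against -0.92), at most 5% mitochondrial UMIs (-0.58) or at least 3000 UMIs (-0.47). The cells differed in kind as well. Dntt, a marker of early thymocytes, was in 50% of control and 94.7% of cKO cells. Among the 32 control and 54 cKO cells with a Dntt, Rag2 or Ptcra UMI, Bcl2 was at 165 and 66.7 and Bcl2l1 at 149 and 146. Bcl2a1b was at 74.3 and 29.2 there, on 9 and 7 UMIs, a ratio of 0.398 (0.124 to 1.18). The 26 control cells without any of these UMIs had 0 Bcl2l1 UMIs and Bcl2a1b at 296. Part of the Rag1+ class in control was thus not shown to be DP by its other markers. In cKO this class held more RNA of the 5 B cell markers, at 247 CPM (45 UMIs) in control and 797 (218 UMIs) in cKO, and its part in these ratios was not tested.

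The balance of the family was read as the share of pro-apoptotic UMIs among all member UMIs, which needs no library total. It was 19.8% in control (19.4 to 20.2) and 21.8% in cKO (21.3 to 22.3) CD3+ Cd8b1-negative T cells. Trav11+ T cells had 19.7% and 21.7%, CD8 T cells 23.1% and 28.5%, and NK cells 24.0% and 32.6%. Rag1+ cells had 18.6% and 26.2%, and B cells 20.1% and 17.7%. The log2 odds, cKO over control, were 0.17 (0.11 to 0.23) in CD3+ Cd8b1-negative T, 0.41 (0.29 to 0.53) in CD8 T and 0.62 (0.21 to 1.03) in NK cells. They were 0.18 (-0.07 to 0.44) in Trav11+ T, 0.64 (-0.06 to 1.34) in Rag1+ and -0.23 (-0.66 to 0.22) in B cells, with intervals that hold 0. The share was thus higher in cKO by point estimate in 5 of the 6 classes, of which Trav11+ T and CD3+ Cd8b1-negative T share cells. Within CD3+ Cd8b1-negative T cells, bands chosen after seeing the data did not all have this sign. In cells under 2000 UMIs the share was 19.1% in control and 16.8% in cKO. From 5% to 10% mitochondrial UMIs it was 19.5% and 18.4%. The intervals of the libraries overlapped in both bands. In every other band of depth or mitochondrial share, cKO was higher by point estimate. With each cell given the same weight the log2 odds in NK cells were -0.20, and without the 5% of barcodes with most UMIs those in Trav11+ T cells were -0.12, both of the opposite sign. Gut or stromal marker UMIs were seen in 2.69% of control and 30.3% of cKO CD3+ Cd8b1-negative T cells. In CD8 T cells they were in 2.99% and 35.0%, and in NK cells in 3.81% and 49.1%. The gut-led cKO cells had Bax at 89.6 CPM and Bak1 at 54.7, against Bcl2 at 16.3 and Mcl1 at 197. The cause of the higher share was not tested.
Which genes carried it differed. In CD3+ Cd8b1-negative T cells the anti-apoptotic sum was 988 CPM in control and 913 in cKO, and the pro-apoptotic sum 244 and 254. Without Bcl2a1b and Bcl2a1d the log2 odds there were 0.07, and in Trav11+ T cells -0.10. For Bcl2l11 against Bcl2 alone, the log2 odds were 1.22 (0.96 to 1.48) in CD8 T and 1.72 (0.88 to 2.59) in NK cells, against 0.26 (0.14 to 0.38) in CD3+ Cd8b1-negative T and -0.04 (-0.60 to 0.52) in Trav11+ T cells. Among CD8 T cells the pro-apoptotic share was 27.8% in control and 30.9% in cKO with Gzmk, and 22.6% and 22.0% without, so within each side the intervals of the libraries overlapped.

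**Figure D3:**
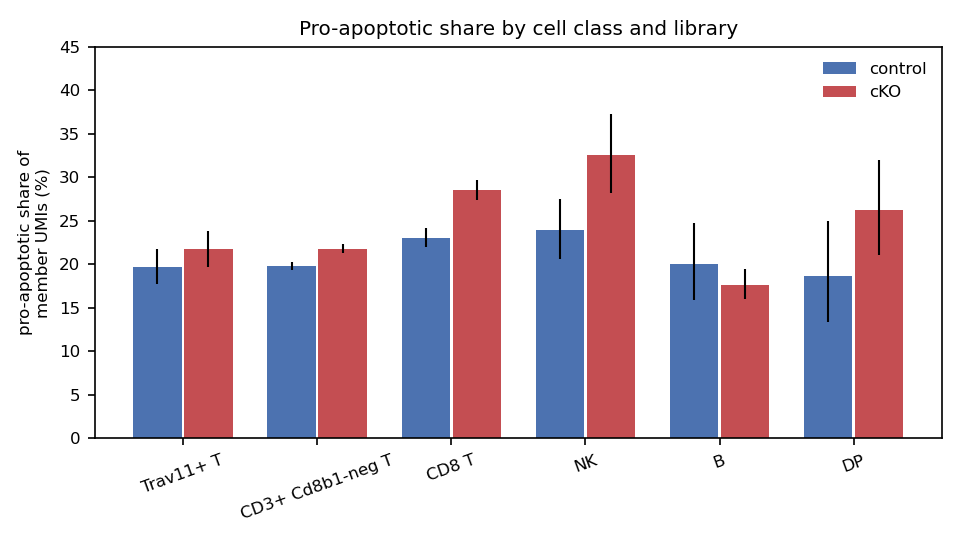
Pro-apoptotic share of the UMIs of the 10 members in each class, in percent, for the control and the cKO library, with exact 95% binomial intervals and an axis that starts at 0. The cKO bar is the taller one in every class but B, and the intervals are apart in CD3+ Cd8b1-negative T, CD8 T and NK cells.

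The near-equal Bcl2 levels of the largest class did not hold at every depth. Within bands of cell depth, a division chosen after seeing the data, control cells stayed between 286 and 316 CPM. In cKO the level was 519 in cells under 2000 UMIs, 408 from 2000 to 4000, 351 from 4000 to 8000 and 249.97 from 8000 on. The ratio went from 1.65 (1.37 to 1.96) in the shallowest band to 0.873 (0.828 to 0.920) in the deepest, and crossed 1. Bcl2a1b was lower in cKO in all 4 bands, with ratios of 0.394, 0.595, 0.705 and 0.843 from shallow to deep. The shallowest band held 2623 control and 193 cKO cells, and the depth of a cell can follow its type as well as its capture.

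By mitochondrial share of UMIs, Bcl2 was higher in the bands above the 10% limit in both libraries. It was 259 in control and 329 in cKO cells under 2.5%, 506 and 594 from 10% to 20%, and 925 and 887 above 20%. Bcl2a1b went the other way, from 283 and 218 in the lowest band to 126 and 54.3 in the highest (20 and 3 UMIs). A high mitochondrial share is a usual sign of damaged cells, whose RNA is not a fair sample of the living cell.

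**Figure D4:**
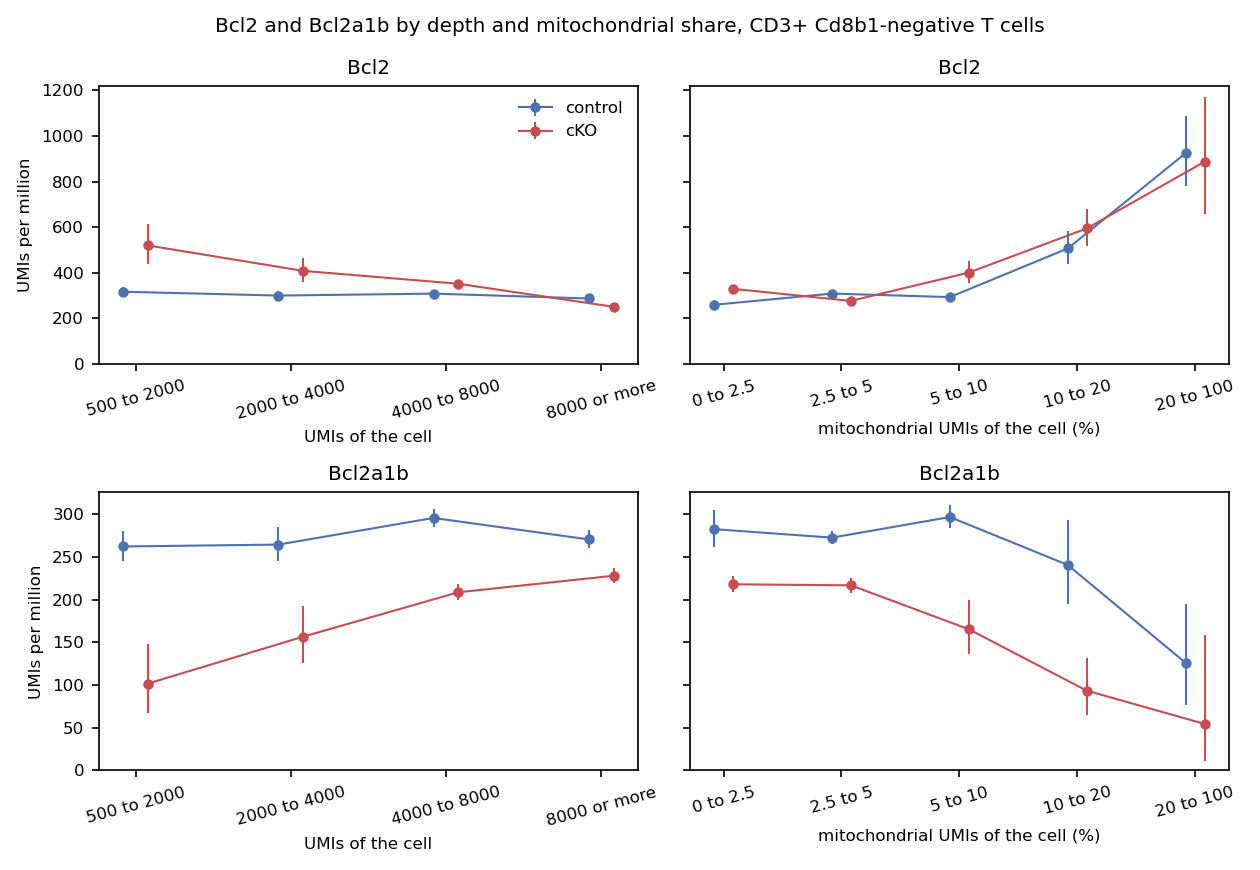
Bcl2 (top) and Bcl2a1b (bottom) in CD3+ Cd8b1-negative T cells by UMIs per cell (left) and by mitochondrial share of UMIs (right), as CPM with exact 95% Poisson intervals on axes that start at 0. Bcl2 is level over depth in control and lower in deeper cells in cKO, and above a mitochondrial share of 10% Bcl2 is high and Bcl2a1b low in both libraries.

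Cells of the same class were also divided by single marker UMIs, again after seeing the data. With Izumo1r (2057 control and 351 cKO cells), Bcl2 was at 257 and 152, a ratio of 0.593 (0.538 to 0.652), and without it at 338 and 329.8. With Klrb1c (2395 and 350 cells), the ratio was 1.21 (1.13 to 1.29) for Bcl2, 1.56 (1.34 to 1.80) for Bcl2l11 and 0.682 (0.622 to 0.745) for Bcl2a1b. Cells with a Mki67 or Top2a UMI, genes of dividing cells, had Bcl2 at 224 and 171, below the 308 and 326 of the others. Cells with Trdc, a segment of the gamma delta receptor, had Bcl2a1b at 166 and 102. Fxyd7 was read in 2 control and 1487 cKO cells, and within cKO Bcl2 was at 347 with it and 261 without.
Bcl2 therefore lay above control in some of these groups and below it in others, while Bcl2a1b had a ratio under 1 with and without each of Izumo1r, Klrb1c, Lgals3, Trdc and the dividing-cell genes.

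Because kept cKO cells held more UMIs (median 5533, against 2666 in control), each cell was thinned to 1500 UMIs before counting the cells that held a member. Whether that difference comes from the reading or from the cells was not tested. In CD3+ Cd8b1-negative T cells (4320 control and 2865 cKO cells, with 1897 and 109 shallower ones left out), Bcl2 was seen in 34.1% and 35.3%, against 50.5% and 70.8% unthinned. Bcl2a1b was seen in 31.9% and 23.9% (52.0% and 60.4% unthinned), so the unthinned order, with cKO above control, turned over. In NK cells Bcl2a1b was seen in 2.33% of control cells and in 0 of 39 cKO cells, a count that still allows 7.69% of cells. Unthinned, 7 of 105 control and 3 of 53 cKO NK cells held a Bcl2a1b UMI. The summed level of Bcl2a1b in NK cells, 16.5 CPM in control (7.54 to 31.3) and 16.5 in cKO (6.63 to 34.0), had intervals that overlapped that of the gut-led cells, 7.98 (5.26 to 11.6), at median depths of 5074 and 8583 against 1328 UMIs, and is not read as expression. In CD8 T cells Bcl2 was seen in 42.5% and 34.6% (62.0% and 75.2% unthinned), and in Rag1+ cells in 15.8% and 3.51% (29.3% and 14% unthinned).

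Genes around the family were taken from lists and read in CD3+ Cd8b1-negative T cells, where 12.7% of all genes tested met the size rule as higher in cKO and 5.07% as lower. In these cells the 8 gut genes summed to 6.86 CPM in control and 857 in cKO and the 3 erythroid genes to 195 and 1.28, and their part in the ratios below was not tested. Of 14 other BCL2 family genes 4 reached 20 CPM. The ones past the rule were all higher in cKO: the BH3-only genes Bik, at 6.23 against 20.8 (ratio 3.34, 2.79 to 4.02), and Bad, at 23.7 against 39.1 (1.65, 1.49 to 1.83), and Bcl2l13, at 14 CPM against 22.9 (1.63, 1.43 to 1.87). Of 8 apoptosome and caspase genes that reached the floor, the 1 past the rule was Endog, a mitochondrial nuclease, 1.55-fold lower. Of 8 death receptor genes the 1 past it was the receptor Fas, at 24.5 against 60.6 (ratio 2.47, 2.25 to 2.72).
On the cytokine side, 1 of 8 genes met the rule: Jak3, the kinase of the common gamma chain, was 1.85-fold lower (22.6 against 12.2). None of 8 stress and p53 genes did. The share over all genes was 17.7%, and counts of 0 or 1 of 8 are too small to tell these 4 lists from it. Of 11 genes of the NF-kB arm, the route known to drive Bcl2a1, 3 were higher and 2 lower. The surface receptor Tnfrsf9 was at 17.4 against 144 (ratio 8.23, 7.47 to 9.10), and Tnfrsf4 at 18.2 against 47.6. The signalling adaptor Traf1 was 1.92-fold lower. The median log2 ratio of the 4 other BCL2 family genes that reached the floor was 0.71, against 0.16 over all genes tested. Of these, Bik and Bcl2l13 reached 20 CPM in cKO only, where they are higher, so this median is not read as a trait of the family. Genes below the floor went both ways, with Bid at 13.9 CPM in control and 9.09 in cKO, and Bcl2l2 at 2.66 and 4.43.

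Over the 12 points of class and library, the genes nearest in pattern to each member by Pearson correlation of log2(CPM + 10) were taken from 5522 genes. These points share libraries and depth, and the values only describe them. Bcl2 was nearest to Esyt1 and Stk10 (r = 0.93 for each), Mcl1 to Bloc1s2 (0.96) and Clasp1 (0.94), and Bcl2l1 to Trpc4ap (0.98) and Srsf3 (0.97). Bcl2a1b was nearest to its copy Bcl2a1d (0.96) and to Ifit1 (0.92), and Bcl2a1d to Bcl2a1b and Snx14 (0.93). Among pro-apoptotic genes Bcl2l11 was nearest to Tradd and Kat7 (0.94 for each), Bax to Bcap29 (0.94) and Med14 (0.90), and Bak1 to Cdk2ap1 (0.92) and Nin (0.86).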

How the data were processed

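The deposited files are whole-number UMI counts per gene and barcode from 3' droplet libraries, made by the authors with Cell Ranger 2.1.1 on mm10, per the submitters' processing notes. The matrix header names software version 3.0.0, and the difference was not resolved. Neither the gene annotation nor the strand setting is given in the sources used here. Gene coordinates were read from GENCODE M21, which held 99.6% of the 32285 identifiers.

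Counts were summed per class and library in Python 3.11.15 with numpy 2.4.6, pandas 2.3.3 and scipy 1.17.1. Library totals were 35210431 and 39979742 UMIs over 10102 and 11206 barcodes; 6.76% and 28.6% of barcodes exceeded the mitochondrial limit. A B cell needed 2 UMIs over a set of B cell markers, among them Cd79a and Ms4a1, and no CD3 UMI; the full set is not reported here. No doublet caller was run. The members and gene lists were chosen with earlier results of these data known.

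All members were named in every class; from each wider list up to 3 genes with the largest log2 ratio past the size rule in CD3+ Cd8b1-negative T cells; and the 2 nearest genes in pattern for each member that reached 50 CPM. The size rule was tested on counts drawn from the real CD3+ Cd8b1-negative T profile with known folds. Alternatives changed the cell filters, class rules, scaling, weight of cells, size rule and gene sets.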

Additional observations from a re-analysis of the deposited data

Results flagged for a closer look

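The difference between libraries in Bcl2 went opposite ways in different classes. These differences between classes were not tested, since each genotype has 1 library. The log2 ratio of Bcl2, cKO over control, in CD8 T cells minus that in Trav11+ T cells was -1.20, and in Rag1+ (DP) minus Trav11+ T cells -1.27. In B cells it exceeded that in CD8 T cells by 2.09, in NK cells by 1.70 and in Rag1+ cells by 2.16. For Bcl2a1b, the log2 ratio in Rag1+ cells minus that in CD8 T cells was -2.15. Control B cells gave 25 Bcl2 UMIs and cKO Rag1+ cells 12 Bcl2a1b UMIs, so these values rest on few molecules. Their size also depends on the processing. Over the alternatives the log2 ratio of Bcl2 ran from 0.21 to 2.41 in B, from -1.15 to -0.24 in CD8 T and from -2.12 to -0.47 in Rag1+ cells. That of Bcl2a1b in CD8 T cells ran from -0.26 to 1.04. Gzmk was found in 7.71% of control and 73.1% of cKO CD8 T cells, and its part in these values was not tested.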

How the results depend on the processing

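No paired analysis was possible because each genotype has 1 library. Scaling took the median log2 ratio of all genes from 0.16 to -0.00 in CD3+ Cd8b1-negative T cells and from 0.27 to -0.03 in CD8 T cells when mitochondrial and ribosomal protein genes were left out of the total, so ratios near 1 are relative to that shift. Of the alternatives to the log2 odds of pro-apoptotic UMIs, 69 stayed within the counting interval of the reported value, 8 left it and 1 whose interval had left out 0 changed sign; for the log2 ratios of single members these numbers were 670, 78 and 2, the last among members past the size rule. The cause was not tested for any of them. With each cell given the same weight, the log2 odds in NK cells changed sign to -0.20, and the members past the size rule were 1 in Trav11+ T, 1 in CD8 T, 5 in NK, 2 in B and 5 in Rag1+ (DP) cells. For these equal-weight counts the interval of the summed UMIs was moved to the equal-weight ratio. It does not cover the error of an equal-weight mean, so the counts only describe the point estimates. Without the 5% of barcodes with most UMIs, the log2 odds in Trav11+ T cells were -0.12 and 1 member was past the rule there. Without Bcl2a1b and Bcl2a1d the log2 odds were -0.10 in Trav11+ T, 0.069 in CD3+ Cd8b1-negative T and 0.58 in CD8 T cells, and without Mcl1 0.63 in CD8 T cells. With BH3-only genes alone as the pro-apoptotic side they were 0.33 in CD3+ Cd8b1-negative T, 1.07 in NK and 0.48 in B cells.

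Other counts of members past the rule that differed were, in B cells, 3 with at least 1000 genes per cell, 2 with at least 3000 UMIs and 2 under median-ratio scaling. In Rag1+ cells 1 was left with 1000 genes, with a limit of 5% mitochondrial UMIs, with 3000 UMIs, and with a ratio of 2. In NK cells there were 2 without cells holding gut or stromal marker UMIs, and in CD8 T cells 1 with a ratio of 2. In Trav11+ T cells there were 2 with mitochondrial and ribosomal protein genes out of the total and 1 under median-ratio scaling. Among CD8 T cells, with a split added after seeing the data, the log2 ratio of Bbc3 changed sign to 0.53 with Gzmk and that of Pmaip1 to -0.56 without it. Depth limits Pmaip1, which had 1 to 4 UMIs per library in Trav11+ T, NK and Rag1+ cells.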
